A study of Mus musculus with 4 samples.

Results

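The genes described are the 2 myosin heavy chains of the working heart muscle, Myh6 and Myh7, the related chain Myh7b, and Mhrt, a long noncoding RNA read from the other strand of Myh7. They are 4 of the 32285 genes in the count tables and were found by symbol. They were chosen on measured values, namely the UMIs of each gene summed over all barcodes of a library, as counts per 1000000 UMIs of the library (CPM), and the ratio of Myh7 to Myh6 in the 4 conditions. Those levels and ratios, and every comparison between libraries made from them, are therefore given as a description with no test. A UMI is the tag that marks 1 captured RNA molecule, and a barcode marks 1 droplet. The study took left ventricle from wild-type male C57BL/6J mice and made 1 droplet library (10x Genomics 3′ chemistry) for each of 4 conditions, sham and I/R (ischemia and reperfusion) in young and in aged mice. Where 4 values follow each other below, they are in the order sham and I/R of young hearts, then sham and I/R of aged hearts. Young mice were 3 to 5 months old and aged mice 24 to 26 months old. In the I/R groups the left anterior descending coronary artery was closed surgically for 45 minutes, and tissue was taken after 24 hours of reperfusion. The sham groups are named sham in the sample titles and healthy, without alteration, in the treatment field. Whether they had an operation thus differs between the labels, while the study describes sham operations. The labels give the molecule as nuclear RNA, whereas the study describes single-cell suspensions. How many mice went into a library was not given in the sources used here. All 4 groups were wild type.

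The myosin heavy chain is the motor of the thick filament: its head hydrolyses ATP and pulls on actin, and its tail packs into the filament. In the mouse ventricle the fast alpha chain (Myh6) replaces the slow beta chain (Myh7) around birth, and a return of the beta chain is a widely used sign of load, injury, low thyroid hormone and age. Myh7b codes for a related sarcomeric chain that is present at low level in heart and slow muscle. Mhrt has been described in mouse heart as a nuclear RNA of the muscle cells that binds the chromatin remodeller Brg1.

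Myh6, Mhrt and Myh7 lie next to each other on mouse chromosome 14 (GRCm38, GENCODE vM21). Myh6 is at chr14:54941921-54966927 and Myh7 at chr14:54970684-54994626, both on the minus strand, with 3756 bases between them. Mhrt is at chr14:54968678-54974349 on the plus strand: it starts in that gap, 1750 bases from the start of Myh6, and runs into the 3′ end of Myh7, with 3666 bases of its span inside that gene. Of the 828 bases of the longer Mhrt transcript, 484 face Myh7 exons, 283 face Myh7 introns and 61 lie outside. The shorter Mhrt transcript, of 447 bases, lies wholly outside Myh7. Among the last 500 bases of the main Myh7 transcript, where a 3′ assay captures most reads, 146 are also Mhrt exon on the other strand. Whether the counting used strand or introns was not given in the sources used here, so reads of Myh7 and Mhrt from that stretch cannot be told apart with certainty. Myh7b is at chr2:155611212-155634307 on the plus strand.

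The coding sequences of Myh6 and Myh7 were 91.7% identical over 5802 aligned bases and 93.6% identical when translated, against 71.5% between Myh6 and Myh7b. In the last 500 bases of the Myh7 transcript, 84 of 411 windows of 90 bases occurred without a mismatch in Myh6, so part of the reads of either chain could have been split or dropped by the counting. None of those windows was shared with Myh7b.

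Each heavy chain gene also carries a microRNA in an intron, and the sequences are shown because the hosts are the genes described here. Mir208a lies in intron 29 of Myh6, Mir208b in intron 31 of Myh7 and Mir499 in intron 19 of Myh7b. The mature sequences are from RefSeq (GRCm38.p6), written 5′ to 3′ with the seed, bases 2 to 8, in capitals.
mmu-miR-208a-3p (Myh6, chr14:54949072-54949093, minus strand): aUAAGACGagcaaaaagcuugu
mmu-miR-208b-3p (Myh7, chr14:54975710-54975731, minus strand): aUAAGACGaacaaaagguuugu
mmu-miR-499-5p (Myh7b, chr2:155622893-155622913, plus strand): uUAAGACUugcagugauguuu
The microRNAs of Myh6 and Myh7 have the same seed, which no other mature mouse microRNA in that table had, and differ at 3 of 22 positions counted from the 5′ end: G10A, A16G and C18U, with the base of miR-208a first. The 3 microRNAs are not among the genes of the count tables and were not measured.

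The 250 bases before the RefSeq start of each gene were searched on both strands for 5 short motifs known from muscle promoters. CATTCC (the MCAT core, GGAATG on the other strand) occurred once each before Myh6, Myh7 and Mhrt and not before Myh7b. The same letters occurred in 12.6% of all 32851 promoter windows. AGATAA, a form of the site of GATA factors, occurred once, before Myh7b, and is in 9.99% of all windows. The thyroid hormone receptor letters AGGTCA also occurred once, before Myh7b, and are in 14.0%. TATAAA was found before none of the 4 and is in 12.4% of windows, and CANNTG, the E-box, was found once before each of the 4 and is in 66.2%. None of these matches overlapped another. The stretch from 230 to 171 bases before the start is shown for the 3 genes of the chromosome 14 cluster, with the MCAT letters in capitals.
Myh6 (chr14:54966778-54966837, minus strand): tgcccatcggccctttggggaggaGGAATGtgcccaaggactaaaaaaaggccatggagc
Myh7 (chr14:54994797-54994856, minus strand): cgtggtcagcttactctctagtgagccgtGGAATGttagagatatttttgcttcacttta
Mhrt (chr14:54968557-54968616, plus strand): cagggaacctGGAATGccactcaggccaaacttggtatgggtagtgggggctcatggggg
These matches describe letters in the windows and not bound sites.

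The libraries held 91124 to 102883 barcodes and 25836175 to 66767829 UMIs, with a median of 244 UMIs per barcode in young sham and 675 in aged I/R. The 20 cardiomyocyte markers summed to 96168, 86744, 92424 and 100780 CPM, and those of endothelial cells, fibroblasts and macrophages to at most 1940, 1018 and 585 CPM. In young sham 92156 of 92200 barcodes, and in the other libraries all or all but 2, held 5 or more cardiomyocyte marker UMIs, and pairs of libraries shared 2366 to 2843 barcode sequences, at most 2.83% of either. With 1 library a condition there is no replicate error, so intervals (95%) cover counting error only, and no difference below can be set against the spread between mice. In sums over barcodes, fewer cells of a type and less RNA per cell cannot be told apart.

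Myh6, the alpha chain, was the most abundant of the 4 genes in every library. It counted 395898 UMIs in sham and 542532 in I/R of young hearts, and 544460 and 1494772 in those of aged hearts, which is 15323, 13675, 13165 and 22388 CPM. Aged I/R stood above the others, which lay within a narrow range. The log2 ratio of CPM was 0.77 for aged I/R over aged sham and 0.71 for aged I/R over young I/R, against -0.22 for aged sham over young sham. For young I/R over young sham it was -0.16, and this sign depended on the scaling: scaling by the median gene-wise ratio, which shifts that comparison by 0.51 on the log2 scale, gave 0.35.

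Myh7, the beta chain, separated the libraries by age. In young hearts its level was 72.3 CPM in sham and 93.9 in I/R, and in aged hearts 1174 and 594, from 1869, 3725, 48541 and 39669 UMIs. Both aged libraries were above both young ones, and aged sham was the highest. Aged sham exceeded young sham 16.2-fold (interval 15.5 to 17.0), the 19th highest of 15875 genes compared, and aged I/R exceeded young I/R 6.33-fold (6.12 to 6.55). Within age, aged I/R was 1.98-fold below aged sham (log2 ratio -0.98), and young I/R was 1.30-fold above young sham (log2 ratio 0.38).

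Myh7b, the related chain, was low throughout. It had 3450, 663, 2535 and 2745 UMIs, or 134, 16.7, 61.3 and 41.1 CPM. Young sham was the highest and young I/R the lowest, 7.99-fold below it (7.35 to 8.70). Aged sham was 2.18-fold below young sham, and aged I/R was 1.49-fold below aged sham and 2.46-fold above young I/R.

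Mhrt, the antisense RNA, was highest in young sham at 1343 CPM, followed by aged I/R at 556, aged sham at 273 and young I/R at 156, from 34686, 37104, 11283 and 6203 UMIs. Its order thus differed from that of Myh7, which it faces, and from that of Myh6, which it starts beside. Young I/R was 8.59-fold below young sham (8.36 to 8.82) and aged sham 4.92-fold below it (4.82 to 5.03). In aged hearts the I/R library was 2.04-fold above sham (1.99 to 2.08), and aged I/R was 3.55-fold above young I/R.

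**Figure D1:**
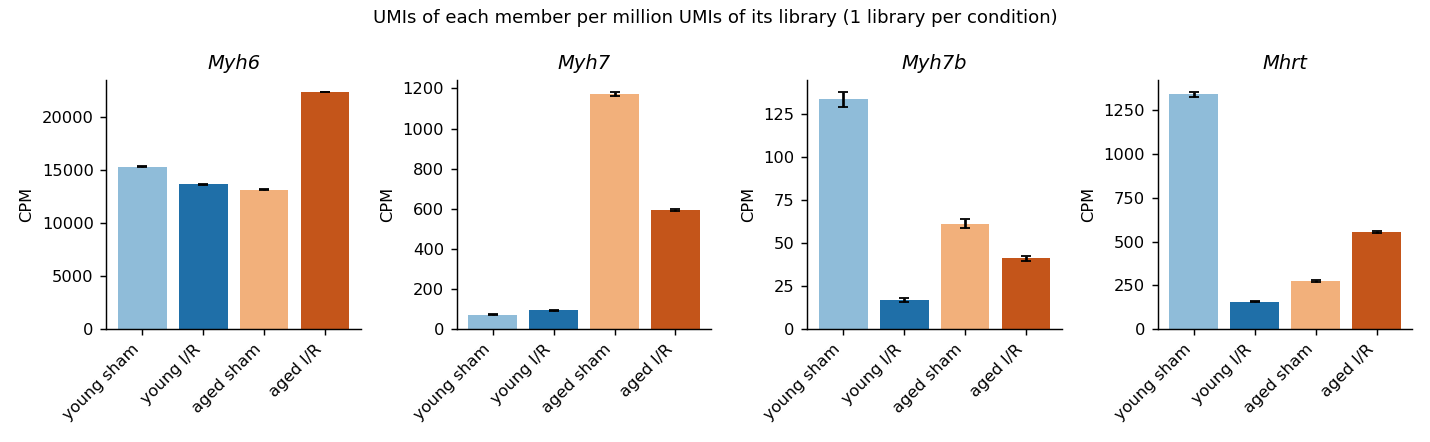
CPM of Myh6, Myh7, Myh7b and Mhrt in the 4 libraries, each panel with its own axis from 0; bars are the value of 1 library and whiskers the 95% Poisson interval of the count. Myh7 is high in the aged libraries (1174 and 594 CPM), whereas Mhrt and Myh7b are highest in young sham (1343 and 134 CPM).

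Set against all genes with at least 20 UMIs over the libraries compared, 0 of the 4 genes were 2-fold or more higher in I/R than in sham of young hearts (3.26% of all genes) and 2, Myh7b and Mhrt, were 2-fold or more lower (27.0%). In aged I/R over aged sham 1 gene, Mhrt, was higher (5.65%) and 0 were lower (3.02%), with Myh7 just inside the limit. In aged over young sham 1 gene, Myh7, was higher (3.48%) and Myh7b and Mhrt were lower (7.21%). In aged over young I/R 3 genes, Myh7, Myh7b and Mhrt, were higher (21.3%) and 0 were lower (1.58%). These comparisons helped to choose the genes, so nothing is read from the counts. The medians of all genes lay at -0.51, 0.09, -0.14 and 0.47 in these comparisons, in the order given. With gene-wise scaling, which removes that shift, 3 of these calls ended (Mhrt in aged I/R over aged sham at 0.94, Myh7b in aged over young sham at -0.97 and in aged over young I/R at 0.85) and Myh7 in aged I/R over aged sham passed the limit at -1.07.

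**Figure D2:**
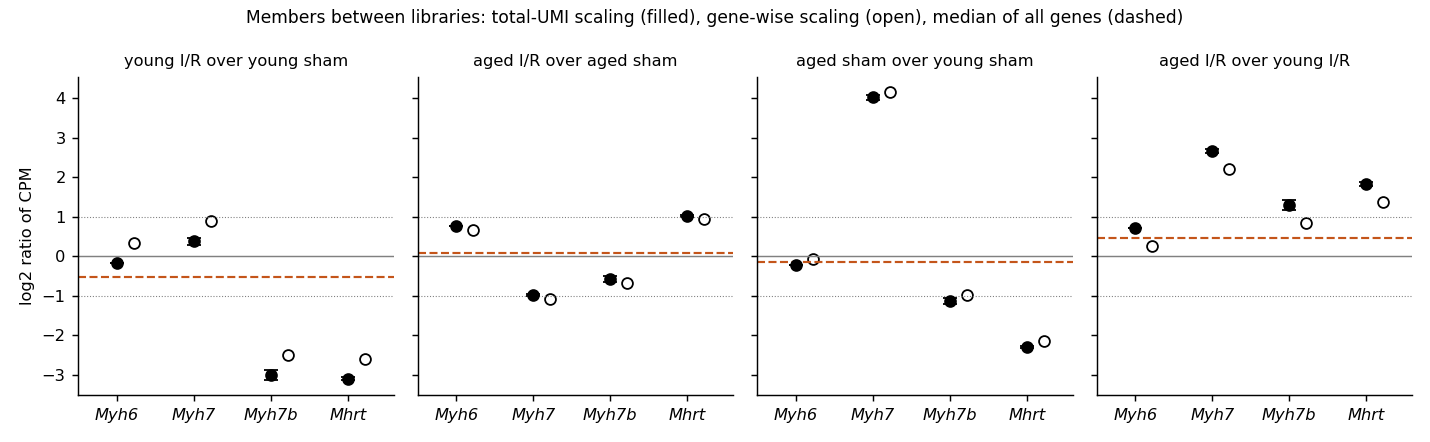
Log2 ratio of CPM of the 4 genes in the 4 comparisons, with filled points for scaling by total UMIs (whiskers, 95% counting interval), open points for gene-wise scaling, a dashed line at the median of all genes and dotted lines at 2-fold. Myh7 stands at 4.02 in aged over young sham, while Mhrt stands at -3.10 in young I/R over young sham.

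The ratio of the chains within a library does not depend on how libraries are scaled. In young hearts there were 4.72 Myh7 UMIs per 1000 Myh6 UMIs in sham (4.51 to 4.94) and 6.87 in I/R (6.65 to 7.09). In aged hearts there were 89.2 in sham (88.3 to 89.99) and 26.5 in I/R (26.3 to 26.8). The beta chain thus made up 0.470%, 0.682%, 8.19% and 2.59% of the UMIs of the pair, and the alpha chain remained the main chain in every library. The main transcripts are 6113 and 6135 bases long, so per kilobase the values were nearly the same, at 4.70, 6.84, 88.8 and 26.4. The ratio was 18.9 times higher in aged than in young sham (log2 change 4.24) and 3.87 times higher in aged than in young I/R (1.95). After I/R it was 3.36 times lower in aged hearts (log2 change -1.75), where Myh7 was lower and Myh6 higher, and 1.45 times higher in young hearts (0.54).

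The ratio of Mhrt to Myh7 spanned the widest range, with 18.6 Mhrt UMIs per Myh7 UMI in sham and 1.67 in I/R of young hearts, against 0.232 and 0.935 in aged hearts. Mhrt was above Myh7 in both young libraries and below it in both aged ones in UMIs, whereas divided by transcript length it was above Myh7 in all 4 (137.5, 12.3, 1.72 and 6.93). In a 3′ assay UMIs need not scale with length, so which of the 2 RNAs was more abundant in aged hearts was not settled. From young to aged sham the ratio was 79.8 times lower (log2 change -6.32). Per 1000 Myh6 UMIs, Mhrt stood at 87.6, 11.4, 20.7 and 24.8, and Myh7b at 8.71, 1.22, 4.66 and 1.84. Relative to Myh6, aged I/R exceeded aged sham in Mhrt by only 0.26 on the log2 scale, against 1.03 in CPM.

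**Figure D3:**
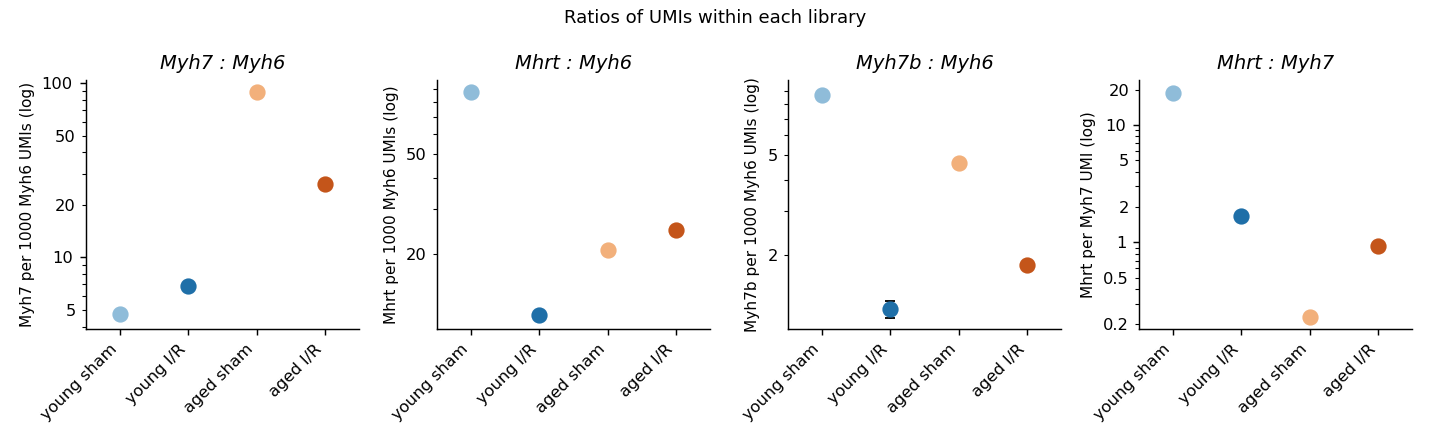
Ratios of UMIs within each of the 4 libraries on log axes: Myh7, Mhrt and Myh7b per 1000 Myh6 UMIs, and Mhrt per Myh7 UMI, with 95% counting intervals (mostly smaller than the points). Myh7 to Myh6 is highest in aged sham (89.2), and Mhrt to Myh7 is lowest there (0.232).

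A second antisense gene of the locus had the same order of libraries as Mhrt. Gm31251 (chr14:54979393-54991601, plus strand), which lies wholly inside Myh7 with 41.9% of its exonic bases facing Myh7 exons, was at 454 CPM in sham and 95.9 in I/R of young hearts, and at 129 and 171 CPM in aged hearts. Its log2 ratios were -2.24 in young I/R over young sham, 0.40 in aged I/R over aged sham, -1.81 in aged over young sham and 0.83 in aged over young I/R. Both antisense genes were thus lower where I/R or age was compared with young sham, while the sense gene Myh7 was not. The other antisense genes, Gm49130 at the 3′ end of Myh6 and Gm29015 inside Myh7, had at most 15 UMIs in a library. Cmtm5, the next gene beyond, was at 1.05, 0.151, 0.339 and 0.509 CPM. Beside Myh7b, Trpc4ap, whose 3′ end overlaps that of Myh7b on the other strand, ranged only from 47.5 to 61.6 CPM, and Edem2 from 6.49 to 9.13 CPM.

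Malat1 and Neat1, noncoding RNAs kept in the nucleus, had the same order of libraries as Mhrt, and the other 5 nuclear RNAs of the list did not. The 7 summed to 77129, 24989, 31815 and 46567 CPM, of which Malat1 alone made 73436, 22223, 28796 and 43300. In young I/R over young sham 6 of the list reached 20 UMIs. Of these 4 were 2-fold or more lower (27.0% of all genes) and 0 higher (3.26%), with a median of -1.66. In aged over young sham 4 were lower (7.21%) and 1 higher (3.48%), with a median of -1.33. In aged I/R over aged sham 1 of 7 was higher (5.65%) and 0 lower (3.02%), with a median of 0.06. In aged over young I/R 2 of 7 were higher (21.3%) and 0 lower (1.58%), with a median of 0.84. Kcnq1ot1 stood at 460, 152, 147 and 272 CPM, Meg3 at 168, 43.1, 68.0 and 38.2, and Rian at 34.2, 7.56, 11.4 and 9.75, so each was highest in young sham. Neat1 varied little, between 2556 and 3024 CPM, and Snhg11 was lowest in young sham, at 5.77, 6.65, 14.9 and 41.6. The part of nuclear RNA content in the levels of Mhrt was not tested.

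Mhrt and Malat1 also moved together between droplets of a library. In young sham, barcodes with fewer than 200 UMIs had 675 CPM of Mhrt and 48196 CPM of Malat1, and those with 800 or more had 3384 and 166960. Per 1000 Myh6 UMIs, Mhrt went from 44.7 to 240 and Myh7b from 4.57 to 21.1 between these bins. In young I/R Mhrt went from 10.4 to 25.7 per 1000 Myh6 UMIs, in aged sham from 16.3 to 44.7, and in aged I/R, which had no barcode under 200 UMIs, from 23.3 at 200 to 399 UMIs to 27.5 at 800 or more. Mhrt and Myh7b were therefore higher in the deepest than in the shallowest barcodes in every library, together with Malat1. At 200 to 399, 400 to 799 and 800 or more UMIs, Myh7b was at 21.1, 31.4 and 53.3 CPM in aged I/R. In the same bins it was at 52.2, 63.6 and 108 CPM in aged sham and at 15.4, 17.0 and 34.7 in young I/R. The part of depth in the summed levels of Myh7b was not tested. Mhrt in young sham was above the other libraries at every depth. In Mhrt per 1000 Myh6 UMIs, aged I/R was above aged sham at 200 to 399 UMIs (23.3 against 15.6). It was about level with aged sham at 400 to 799 (22.3 against 22.1) and below it at 800 or more (27.5 against 44.7).

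**Figure D4:**
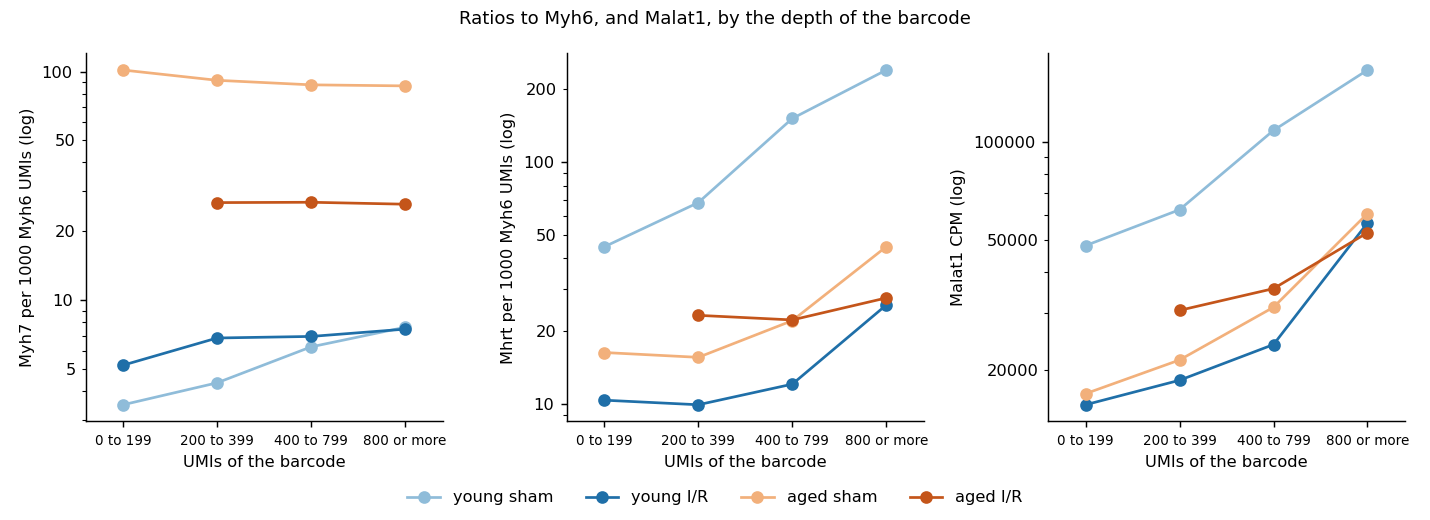
Myh7 per 1000 Myh6 UMIs, Mhrt per 1000 Myh6 UMIs and Malat1 CPM on log axes against the total UMIs of the barcode, with 1 line per library. At 800 or more UMIs the Myh7 to Myh6 ratios of the young libraries have wide, overlapping intervals, from 73 and 91 Myh7 UMIs. They are 7.61 (5.96 to 9.57) in sham and 7.46 (6.00 to 9.17) in I/R. Mhrt and Malat1 are higher in the deepest than in the shallowest barcodes of all 4 libraries.

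The Myh7 to Myh6 ratio also moved with depth, upward in both young libraries and downward in aged sham. In young sham it was 3.48 per 1000 (3.05 to 3.96) under 200 UMIs and 7.61 (5.96 to 9.57) at 800 or more, and in young I/R it was 5.19 (3.91 to 6.76) and 7.46 (6.00 to 9.17). In aged sham it went from 101.5 (95.2 to 108) to 86.5 (82.8 to 90.3), and in aged I/R it stayed between 26.3 and 26.8. From the shallowest to the deepest bin the log2 change was 1.13 (0.75 to 1.51) in young sham, 0.52 (0.039 to 1.01) in young I/R, -0.23 (-0.34 to -0.12) in aged sham and -0.023 (-0.11 to 0.066) in aged I/R. At matched depth the log2 change of the ratio from sham to I/R in young hearts was 0.58 (0.15 to 0.9998) under 200 UMIs and 0.65 (0.54 to 0.77) at 200 to 399 UMIs, which hold most young barcodes. It was 0.15 (0.017 to 0.29) at 400 to 799 UMIs and -0.027 (-0.47 to 0.42) at 800 or more, where it was not detectable. The order of aged sham, aged I/R and the young libraries was the same at every depth, with log2 changes of 4.86 to 3.51 from young to aged sham. In the barcodes with at least 200 detected genes the log2 change of the ratio in young I/R over young sham was 0.21 (0.10 to 0.31), and that of Myh7 itself was 0.05 (-0.06 to 0.15). This cut kept 28.4% of young sham and 55.2% of young I/R barcodes, so it compares unlike parts of the libraries.

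The ratio was similar in droplets that carried markers of other cell types. Among barcodes thinned to 200 UMIs, those with at least 2 UMIs of the 39 endothelial, fibroblast and macrophage markers had 4.12 (3.55 to 4.74), 6.67, 89.7 and 26.2 Myh7 UMIs per 1000 Myh6 UMIs, against 4.56 (4.27 to 4.86), 7.01, 89.3 and 26.3 in all thinned barcodes. After thinning, 94.7%, 93.3%, 92.7% and 98.4% of all thinned barcodes had a Myh6 UMI, and of those with non-myocyte markers 94.5%, 93.1%, 92.6% and 98.4%. For Myh7 the shares were 1.38%, 1.90%, 20.8% and 10.8% of all thinned barcodes against 1.23%, 1.80%, 20.7% and 10.9%. Barcodes with non-myocyte markers held about as many cardiomyocyte marker UMIs as those with no atrial marker, with means of 18.5, 17.3, 18.3 and 20.02 against 19.1, 17.3, 18.5 and 20.03 of 200 UMIs. The cut of 2 marker UMIs, made before thinning, took 19.8%, 23.6%, 41.0% and 62.8% of barcodes. In young sham 12613 of the 18267 barcodes taken held exactly 2 such UMIs. With so lenient a cut no set of barcodes that should lack heavy chain RNA was set apart. A stricter cut was not tried, and a share of barcodes was not read as a share of expressing cells. Before thinning the median depths of the barcodes with at least 200 UMIs were 282, 381, 399 and 675 UMIs. Those among them with non-myocyte markers had 315, 429, 448 and 740. Over barcodes of any depth, the unthinned shares with a Myh7 UMI were 1.95%, 3.52%, 36.8% and 33.4%.

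Mhrt departed from that uniformity most clearly in young sham. Its shares were 19.9% (19.6 to 20.2), 2.90%, 4.75% and 9.40% of all thinned barcodes. In those with non-myocyte markers they were 17.7% (17.1 to 18.4), 3.11%, 4.78% and 9.44%. At 200 UMIs the intervals of the 2 shares were apart in young sham alone. The second set is part of the first, so this does not test the difference in the other libraries. Only 12544 of the 92200 young sham barcodes had 400 UMIs or more. Of these, thinned to 400 UMIs, 52.4% had a Mhrt UMI, against 43.6% of those with non-myocyte markers. Myh7 was found in 3.64% (3.32 to 3.99) against 2.78% (2.31 to 3.31). In young sham thinned to 200 UMIs, Mhrt per 1000 Myh6 UMIs was 61.5 (53.7 to 70.1) in barcodes with 0 to 9 cardiomyocyte marker UMIs among the 200. It was 116 (107 to 125) in those with 30 to 39, and Myh7 per 1000 Myh6 was 2.88 (1.43 to 5.15) and 6.21 (4.45 to 8.43). In aged sham Mhrt per 1000 Myh6 UMIs was 16.4 (12.4 to 21.2) and 27.8 (21.5 to 35.5) in these bins. In the I/R libraries the intervals of these bins overlapped. Young I/R had 11.6 (9.10 to 14.5) and 12.2 (6.48 to 21.0), and aged I/R 19.3 (14.1 to 25.9) and 24.9 (21.8 to 28.2). The largest count in 1 barcode was 17 for Mhrt, 5 for Myh7 and 35 for Myh6 in young sham, and 18, 17 and 248 in aged I/R.

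Barcodes with a Mhrt UMI among the 200 drawn in thinning were also richer in Myh7b than the other thinned barcodes in every library. The log2 ratios of CPM, from all UMIs of the barcodes, were 0.91 (0.81 to 1.02) and 0.61 (0.03 to 1.14) in sham and I/R of young hearts. They were 0.66 (0.44 to 0.87) and 0.53 (0.36 to 0.68) in aged hearts. The other barcodes could hold Mhrt outside the draw: in aged I/R 8564 barcodes had it in the draw and 26696 before thinning. Malat1 was higher in barcodes with Mhrt in the draw too, by 0.62, 0.49, 0.55 and 0.28. So was the giant sarcomere protein gene Ttn, by 0.51, 0.21, 0.37 and 0.12. Myh6 differed by at most 0.05 either way. Myh7 in barcodes with Mhrt in the draw was higher in young sham at 0.48 (0.32 to 0.63) and slightly lower in aged sham at -0.09 (-0.15 to -0.03). The intervals of young and aged I/R included 0. These barcodes were deeper before thinning, with medians of 328, 397.5, 428 and 708.5 UMIs against 274, 380, 397 and 672, and the part of depth was not tested.

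Paired isoforms of other sarcomere proteins were read in the same way, as UMIs of the gene named first per 1000 of the second. Acta1 to Actc1, skeletal to cardiac actin, was 49.5, 96.6, 35.3 and 24.8, so it was highest in young I/R and lower in both aged libraries. The atrial to ventricular light chain pairs had the same leader, with 9.47, 13.8, 5.64 and 6.79 for Myl4 to Myl3 and 7.37, 13.2, 5.01 and 4.81 for Myl7 to Myl2. Tpm2 to Tpm1, the tropomyosins, stayed between 6.64 and 8.59, and Tnni1 to Tnni3, slow skeletal to cardiac troponin I, between 0.112 and 0.182. From young to aged sham these 5 pairs changed by -0.75 to 0.70 on the log2 scale, against 4.24 for Myh7 to Myh6. The 0.70 is that of Tnni1 to Tnni3, from 14 and 39 Tnni1 UMIs, and its interval (-0.18 to 1.58) included 0.

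**Figure D5:**
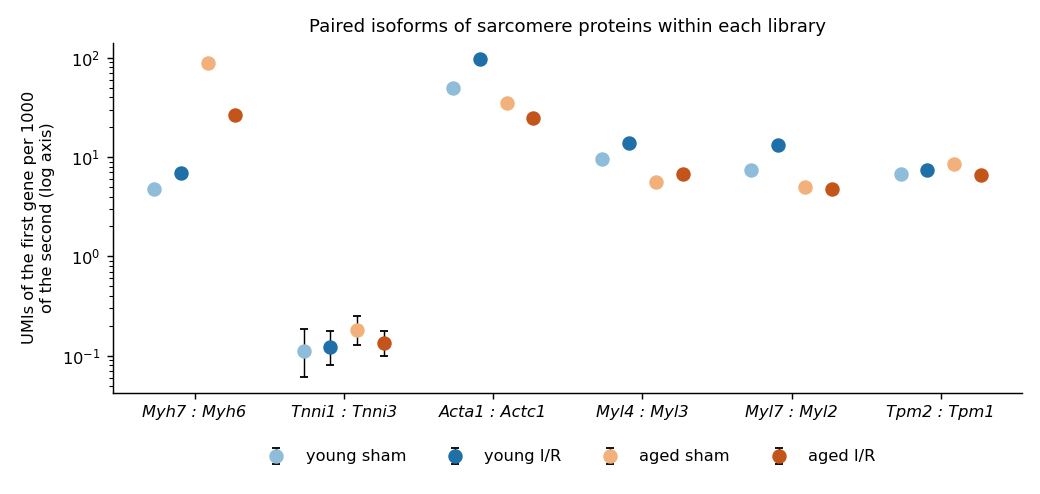
UMIs of the first gene per 1000 UMIs of the second for 6 pairs of sarcomere isoforms in the 4 libraries, on a log axis with 95% counting intervals. Myh7 to Myh6 is highest in aged sham (89.2) and Acta1 to Actc1 in young I/R (96.6).

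Other heavy chains were few. Of 11 further Myh genes, only the nonmuscle chains Myh9, Myh10 and Myh14 and the smooth muscle chain Myh11 reached 20 UMIs, and the embryonic, perinatal, fast skeletal and other sarcomeric chains (Myh1, Myh2, Myh3, Myh4, Myh8, Myh13 and Myh15) had at most 7 UMIs in any library. Myh9 was at 113, 108, 97.8 and 210 CPM, and Myh10 at 34.0, 24.9, 25.8 and 53.8, so both were highest in aged I/R, as Myh6 was. Of these 4 genes 2, Myh9 and Myh10, were 2-fold or more higher in aged I/R over aged sham (5.65% of all genes). In aged over young I/R 2, Myh10 and Myh11, were higher (21.3%). In the 4 comparisons 0 were lower (27.0%, 3.02%, 7.21% and 1.58% of all genes), and the medians were -0.26, 0.85, -0.22 and 1.003.

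The ventricular light chains, which sit on the myosin neck, were lowest in young sham and highest in aged sham, as Myh7 was, over a far smaller range. Myl2 was at 6619, 7384, 9373 and 6756 CPM and Myl3 at 5090, 6329, 6838 and 5148. Of 14 light chain and kinase genes 0 passed 2-fold in aged over young sham (all genes 3.48% higher and 7.21% lower, list median 0.23). In aged I/R over aged sham likewise 0 did (all genes 5.65% higher and 3.02% lower, list median -0.40). Myl7, the atrial regulatory chain, was the 1 of 13 that was higher in young I/R over young sham (3.26% of all genes). It was at 97.6 against 48.8 CPM, with a list median of 0.10. In aged over young I/R 2 of 14 were lower (1.58% of all genes) and 0 higher (21.3%), with a median of -0.21. Myl7 was the lowest there at -1.59. Mylk3, the cardiac light chain kinase, was at 305, 174, 209 and 320 CPM.

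Among the 17 partners of the thick filament, 16 reached 20 UMIs. Ttn was at 31744, 18615, 18041 and 34439 CPM, Mybpc3, the cardiac myosin binding protein C, at 1704, 1344, 1944 and 1431, and Cryab, a small heat shock protein, at 1311, 2445, 1376 and 1170. In young I/R over young sham 2 were 2-fold or more lower (27.0% of all genes) and 0 higher (3.26%), with a median of -0.18. In aged I/R over aged sham 1 was higher (5.65%) and 0 lower (3.02%), with a median of -0.08. In aged over young sham 1 was lower (7.21%) and 0 higher (3.48%), with a median of -0.19. In aged over young I/R 3 were higher (21.3%) and 2 lower (1.58%), with a median of 0.11. Trim55, the muscle ubiquitin ligase MURF2, was at the end of the list in all 4, with log2 ratios of -1.49, 1.51, -1.23 and 1.77.

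The list of 33 regulators of the cardiac myosin genes holds thyroid hormone receptors, GATA, MEF2 and TEAD factors and chromatin proteins, among them Smarca4, which codes for Brg1. In young I/R over young sham 6 were 2-fold or more lower (27.0% of all genes) and 0 higher (3.26%). The median was -0.51 beside -0.51 for all genes. In aged I/R over aged sham 1 (Tead4, at 1.06) was higher (5.65% of all genes) and 0 lower (3.02%), with a median of 0.30. In aged over young sham 1 (Sox6, at -1.10) was lower (7.21%) and 0 higher (3.48%), with a median of -0.29. In aged over young I/R 5 were higher (21.3%) and 0 lower (1.58%), with a median of 0.55. Mef2a was at 305, 129, 218 and 262 CPM, Tead1, which binds the MCAT letters, at 230, 211, 224 and 235, and Sox6, a repressor of slow fibre genes, at 49.9, 15.3, 23.3 and 30.4. Sox6 and Hdac9 were the lowest of the list in young I/R over young sham, at -1.71 and -1.64.

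Of 15 genes of thyroid hormone handling and of its known heart targets 13 were tested. Atp2a2, the calcium pump, was at 5272, 6057, 6938 and 4897 CPM, Pln, its inhibitor, at 3092, 2037, 2982 and 2636, and Klf9 at 168, 164, 134 and 173. In young I/R over young sham 4 were lower (27.0% of all genes) and 0 higher (3.26%), with a median of -0.44. In aged I/R over aged sham 1 was lower (3.02%) and 0 higher (5.65%), with a median of -0.01. In aged over young sham 1 was higher (3.48%) and 0 lower (7.21%), with a median of -0.24. In aged over young I/R 1 was higher (21.3%) and 0 lower (1.58%), with a median of 0.08. Dio2, which activates thyroid hormone, was the gene that was higher in aged over young sham (1.21) and lower in aged I/R over aged sham (-1.04), at 3.72, 4.66, 8.61 and 4.18 CPM.

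The list of microRNA targets holds 6 genes known as targets of the microRNAs carried by the heavy chain genes. In young I/R over young sham 1 of 5 was lower (27.0% of all genes) and 0 higher (3.26%), with a median of -0.31. In aged I/R over aged sham 0 of 6 passed 2-fold (all genes 5.65% higher and 3.02% lower, list median 0.26). In aged over young sham 1 was higher (3.48%) and 1 lower (7.21%), with a median of -0.25. In aged over young I/R 1 was higher (21.3%) and 0 lower (1.58%), with a median of 0.52. Purb was at 117, 99.2, 94.95 and 154 CPM, Med13, a Mediator subunit, at 105, 73.6, 85.7 and 88.6, and Hbp1 at 55.3, 46.8, 57.5 and 52.1. The gene that was higher in aged over young sham was Mstn, myostatin, near the floor of the counts at 0.116 and 0.411 CPM. The lower one was Sox6, already given.

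For each of the 4 genes the 5 most alike were those with the smallest distance between log2 CPM profiles over the 4 libraries, centred on their means, among 3116 genes. Myh6 had very close profiles beside it, led by Aimp1 (74.6, 66.4, 61.8 and 107 CPM, distance 0.04), Wasf2, Atf6, Zfp91 and Mbd2. Mhrt was nearest to Gm47644 (99.1, 12.4, 23.5 and 53.1 CPM, distance 0.28), D830024N08Rik, 4632404M16Rik, Gm26621 and Kbtbd12, and Myh7b to Gm36827 (114, 16.6, 75.5 and 44.6 CPM, distance 0.39), Hmcn1, 3222401L13Rik, Smtn and Nckap5. Myh7 had no near profile among the genes searched. C4b, a complement gene, was the closest at 32.1, 16.8, 91.5 and 84.2 CPM with a distance of 1.81. It was followed by F830016B08Rik and by the antigen presentation genes H2-Q6, H2-Aa and H2-K1. H2-K1 stood at 137, 105, 344 and 217 CPM. With 4 libraries such distances describe these libraries only.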

How the data were processed

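The deposited values were UMI counts per gene and barcode, which the authors made with Cell Ranger 6.0.2 on the mm10 build, as the submitters' processing notes give. Strand and intron settings were not given in the sources used here. All deposited barcodes were used, with no doublet caller and no clusters. UMIs were summed per library and divided by the library total (CPM), with Python 3.11.15, numpy 2.4.6, scipy 1.17.1, matplotlib 3.10.9 and biopython 1.88. With 1 library a condition no test was made. Intervals (95%) were exact Poisson for levels, exact conditional binomial for ratios of sums and from the log odds ratio for changes of ratios, and they cover counting error only, since depth sets the precision and mice are not replicated. Only the intervals of CPM ratios were tried on simulated data, with Poisson counts at the depths of the young libraries. That simulation held no spread between libraries, so it cannot show how the intervals behave with such spread. Genes with at least 20 UMIs over the libraries of a comparison were compared, and 2-fold was the limit for counts. For shares, barcodes with at least 200 UMIs were thinned to 200. The 14 gene lists were cardiomyocyte, endothelial, fibroblast, macrophage, mural, erythroid and atrial markers, nuclear noncoding RNAs, other heavy chains, light chains and kinases, thick filament partners, regulators, thyroid genes and microRNA targets. The 4 genes and all lists were chosen with earlier results of these data known. Named genes were the 3 most abundant of a list, its extremes per comparison, the isoform pairs, the 5 most alike genes and 3 neighbours on each side. The depth, marker and co-detection bins were chosen after seeing the data. Alternatives were gene-wise size factors, a total without mitochondrial genes, Gm42418 and Malat1, barcodes with at least 200 genes, cardiomyocyte markers as denominator, other minimum counts and other thinning. The values of 1 gene of the thyroid list are not reported here.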

Additional observations from a re-analysis of the deposited data

Results flagged for a closer look

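The genes whose I/R over sham difference has opposite signs in young and aged hearts are given here. Each condition is 1 library, so the difference between ages was not tested. For Myh6 the log2 ratio of CPM between I/R and sham was -0.16 in young and 0.77 in aged hearts. The young value of Myh6 was 0.35 with gene-wise scaling and -0.018 and -0.015 with other denominators, so the opposite signs of Myh6 do not hold across settings. For Myh7 it was 0.38, or 0.05 (-0.06 to 0.15) in barcodes with at least 200 genes, and -0.98, and for Mhrt -3.10 and 1.03. Within libraries, the log2 change of the ratio was 0.54 in young and -1.75 in aged hearts for Myh7 to Myh6, -3.48 and 2.01 for Mhrt to Myh7, and -2.94 and 0.26 for Mhrt to Myh6. Myh7b was lower after I/R at both ages.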

How the results depend on the processing

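Each condition is 1 library, so no library could be left out and no spread between mice is known. No paired analysis was possible because each condition has 1 library and no result comes from a test. Depth limits Myh7b in young I/R (663 UMIs) and Myh7 in young sham (1869 UMIs) most. Log2 ratios of CPM are given here for I/R against sham in young and in aged hearts, then for aged against young in sham and in I/R. With gene-wise scaling they were 0.35, 0.68, -0.071 and 0.26 for Myh6, 0.89, -1.07, 4.17 and 2.21 for Myh7, -2.49, -0.67, -0.97 and 0.85 for Myh7b, and -2.59, 0.94, -2.15 and 1.38 for Mhrt. Only the first of these, Myh6 in young hearts, changed sign between the scalings and the gene filter given in this paragraph. The cause was not tested. With a total without mitochondrial genes, Gm42418 and Malat1 they were -0.018, 0.68, -0.14 and 0.55 for Myh6, 0.52, -1.07, 4.10 and 2.50 for Myh7, -2.85, -0.67, -1.05 and 1.14 for Myh7b, and -2.96, 0.94, -2.22 and 1.67 for Mhrt. In barcodes with at least 200 genes they were -0.16, 0.77, -0.22 and 0.71 for Myh6, 0.048, -0.96, 3.67 and 2.66 for Myh7, -3.42, -0.63, -1.57 and 1.21 for Myh7b, and -3.56, 0.93, -2.78 and 1.72 for Mhrt. Per cardiomyocyte marker UMI they were -0.015, 0.64, -0.16 and 0.49 for Myh6, 0.52, -1.11, 4.08 and 2.45 for Myh7, -2.85, -0.70, -1.07 and 1.08 for Myh7b, and -2.95, 0.90, -2.24 and 1.61 for Mhrt. By depth of the barcode, the young rise of Myh7 did not hold at 800 or more UMIs. There Myh7 was at 107 CPM in young sham and 95.8 in young I/R, from 73 and 91 Myh7 UMIs.

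The Myh7 to Myh6 ratio of young sham was 5.98 per 1000 in barcodes with at least 200 genes, and its log2 change was then 0.21 for I/R in young hearts and 3.89 for aged against young sham. The cut at 200 genes kept 28.4%, 55.2%, 67.9% and 98.8% of barcodes in sham and I/R of young, then of aged hearts. Values under it thus come from unlike parts of the libraries. After thinning to 200 UMIs the change for I/R in young hearts was 0.62, and in bins of depth it ranged from 0.65 to -0.027. In barcodes with at least 5 cardiomyocyte marker UMIs, all 8 ratios and changes stayed within their counting intervals. That filter kept 99.95%, 99.998%, 99.998% and 100% of barcodes, so it could hardly change them and is no check. Thinning to 400 UMIs left out shallower barcodes and kept 12544 of 92200, 42796 of 102883, 47702 of 100342 and 85268 of 91124. The shares at that depth therefore come from unlike parts of the libraries. Shares of barcodes with a Myh7 UMI were 3.64%, 3.70%, 36.1% and 20.5% among those kept. Without thinning, over all barcodes, they were 1.95%, 3.52%, 36.8% and 33.4%. The shares with a Mhrt UMI were 52.4%, 6.28%, 10.5% and 18.3% among those kept, and 23.7%, 5.57%, 9.70% and 29.3% without thinning.

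The counts of all genes past 2-fold moved with the filter. With a minimum of 100 UMIs, 303 were higher and 2748 lower for I/R in young hearts, 491 and 206 for I/R in aged hearts, 203 and 579 for aged against young sham, and 2261 and 116 for aged against young I/R, against 504 and 4177, 947 and 506, 553 and 1145, and 3512 and 261 with the minimum of 20. With at least 1 UMI in each library, 908 were higher for I/R in young hearts, 1679 higher and 1523 lower for I/R in aged hearts, 1176 and 2246 for aged against young sham, and 1074 lower for aged against young I/R. Gene-wise scaling gave 1194 higher and 1940 lower for I/R in young hearts, and 1627 and 793 for aged against young I/R.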

Other observations

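The remaining marker lists describe other cells of the heart, with values in the order sham and I/R of young hearts, then of aged hearts. Erythroid markers were at 2558, 1948, 1685 and 1018 CPM, mural markers at 707, 534, 733 and 677, and atrial markers at 118, 230, 105 and 78.9. The atrial list, which holds Myl4 and Myl7 of the isoform pairs, was thus highest in young I/R, where Sln was at 45.2 CPM against 21.3 in young sham, and Bmp10 had at most 0.677 CPM in any library. Counts of markers 2-fold or more higher and lower follow, for I/R against sham in young and in aged hearts and then for aged against young in sham and in I/R. Of all genes 3.26% and 27.0%, 5.65% and 3.02%, 3.48% and 7.21%, and 21.3% and 1.58% passed in the same order. Of 20 cardiomyocyte markers 0 and 0, 2 and 1, 0 and 1, and 1 and 0 passed, with medians of 0.12, -0.35, 0.14 and -0.12. Of 14 endothelial markers 1 and 1, 0 and 1, 0 and 0, and 1 and 0 passed (medians -0.37, -0.15, 0.21 and 0.53), and of 12 fibroblast markers 0 and 2, 0 and 1, 1 and 0, and 1 and 0 (medians -0.58, -0.25, 0.02 and 0.65). Of 13 macrophage markers 1 and 1, 0 and 1, 1 and 0, and 4 and 0 passed (medians -0.35, -0.15, 0.57 and 0.89), with Ctss, a lysosomal protease, the highest in aged against young I/R at 1.60. Of 8 mural markers 0 and 1 passed in young hearts and 0 elsewhere (medians -0.33, -0.06, 0.13 and 0.33). Of the 4 erythroid markers 0 were higher, and 0, 1, 1 and 3 were lower (medians -0.38, -0.77, -0.62 and -1.07). Of the atrial markers 2 and 0 of 3, 0 and 1 of 4, 1 and 0 of 4, and 0 and 3 of 3 passed (medians 1.0005, -0.64, -0.11 and -1.59). The 1 that was higher in aged over young sham was Bmp10, with 28 against 1 UMI. The medians of all genes were -0.51, 0.09, -0.14 and 0.47.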
